A study of Mus musculus with 3 samples.

Results

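Immediate-early genes are transcribed within minutes of a stimulus, without new protein being made first, and most encode transcription factors. The 10 genes described here are a set fixed by name, proposed with earlier results of these data known: the zinc finger factor gene Egr1, the AP-1 genes Fos, Fosb, Jun, Junb and Jund, the ATF family gene Atf3, the orphan nuclear receptor gene Nr4a1, and the immediate-early response genes Ier2 and Ier3. They are read by 14 probe sets of the 12588 on the array that are not controls, and 10 of the 14 probe sets, for 8 of the 10 genes, were above the noise floor on at least 1 array. RNA was measured in LNC, a malignant B-1 cell line that was established from lymph node cells of a New Zealand Black (NZB) mouse, with 1 array for each of 3 groups: cells given an IL-10 antisense oligonucleotide at 20 µM, cells given a scrambled oligonucleotide at 20 µM, and untreated cells. The labels place RNA collection at 24 h. All groups share this 1 line, and the sources used here do not say whether an array held 1 culture or several pooled.

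AP-1 is a dimer of a Fos protein with a Jun protein, or of Jun proteins with each other or with ATF proteins, and it binds DNA sites of the form TGANTCA. Serum response factor with its ETS partners, CREB and NF-kB are the known routes by which kinase signals reach the promoters of these genes, and B cell receptor signals induce Egr1, Fos and Nr4a1 in B cells. Their RNAs are short-lived, so a sample taken at a late time reads the level that is kept up and not the early burst.

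Each group has a single array and therefore no replicate error, so the differences were not tested, and the number of arrays sets the limit on precision. Values are intensities scaled to a common level on each array, and values below a floor of 595.9 carry no order. Differences are in log2 units, so that 1 is 2-fold. As the only guide to error, each is set beside a yardstick. It is the 95th percentile of the absolute gap between the scrambled and the untreated array among the 300 probe sets nearest in level. Whatever the scrambled oligonucleotide itself did is part of that gap. For scrambled against untreated the yardstick comes from these same 2 arrays. There it only describes where a probe set stands among others of its level. Differences of the antisense-labelled array were wider over all probe sets past the filter. Their median absolute size was 0.24 against untreated and 0.27 against scrambled, beside 0.20 between the controls. The share of all probe sets beyond the yardstick was not counted. Intensities of different probe sets are not compared, since probes differ in how they bind.

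The antisense-labelled array differed from the others in ways that touch each comparison below. Il10, the targeted gene, read 13946 there, 5616 with the scrambled oligonucleotide and 5164 in untreated cells, which is not the direction of a loss of that RNA, and the label is therefore carried in the name of the array. Bacterial spike-in controls were lower there by 0.63 against untreated and 0.51 against scrambled, and the 5-prime probe set for 18S ribosomal RNA read 640 against 2434 and 4463. Of 7 B cell marker genes on the array, 5 were above the floor on each array, among them Ms4a1, Cd79a and Pax5. Cd22, and Cd5, which marks B-1 cells, read below the floor on all 3 arrays. Of 6 T cell markers only Cd4 was above the floor, and the Cd3 chain genes were not. Of 7 myeloid markers, 3 were above it on the antisense-labelled array, 2 with the scrambled oligonucleotide and 3 in untreated cells. Cd14 (1088, 1563 and 2061) and Elane (706, 769 and 773) were above it on all 3 arrays. Csf1r was above it in untreated cells alone, at 949, and Mpo on the antisense-labelled array alone, at 688. Lyz2, Itgam and Adgre1 were below it throughout. With values below the floor set to it, the summed intensity of the B cell markers was 64966, 88587 and 85035 on the antisense-labelled, scrambled and untreated arrays. That of the T cell markers was 4246, 5319 and 4329, mostly floor values. That of the myeloid markers was 4865, 5312 and 6167, to which floor values also contributed. The B cell sum rests mostly on Ms4a1 (31106, 44803 and 44237) and Cd79a (21473, 30469 and 27790), while Cd79b read 1649.5, 1489 and 1525. The part of any of these array differences in the values below was not tested.

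Promoter sequences of 8 of the 10 genes were found in the RefSeq table (GRCm38.p6), and Egr1 and Ier2 are named only. As examples, Ier3 read higher on the antisense-labelled array than on both controls, Fosb was below the floor on that array alone, and Jund was nearly level. The promoters of these genes are shown. Each runs from 250 bases before the annotated start to 50 after it, 5′ to 3′ on the strand of the gene: chr17:35821463-35821762 on the plus strand for Ier3, chr7:19309996-19310295 on the minus strand for Fosb and chr8:70697489-70697788 on the plus strand for Jund. Capitals mark every match to the motifs named in the next paragraph.
Ier3: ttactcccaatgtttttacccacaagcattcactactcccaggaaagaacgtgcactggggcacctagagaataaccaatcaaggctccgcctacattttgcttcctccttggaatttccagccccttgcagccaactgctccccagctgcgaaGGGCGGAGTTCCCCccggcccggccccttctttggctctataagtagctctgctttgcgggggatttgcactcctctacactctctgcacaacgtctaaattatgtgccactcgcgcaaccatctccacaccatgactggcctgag
Fosb: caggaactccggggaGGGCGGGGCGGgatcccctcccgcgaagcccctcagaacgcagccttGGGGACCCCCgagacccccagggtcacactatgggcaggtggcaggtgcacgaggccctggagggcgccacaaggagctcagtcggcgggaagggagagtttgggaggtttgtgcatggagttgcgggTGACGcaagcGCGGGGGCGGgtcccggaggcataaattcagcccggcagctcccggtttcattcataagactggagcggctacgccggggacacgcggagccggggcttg
Jund: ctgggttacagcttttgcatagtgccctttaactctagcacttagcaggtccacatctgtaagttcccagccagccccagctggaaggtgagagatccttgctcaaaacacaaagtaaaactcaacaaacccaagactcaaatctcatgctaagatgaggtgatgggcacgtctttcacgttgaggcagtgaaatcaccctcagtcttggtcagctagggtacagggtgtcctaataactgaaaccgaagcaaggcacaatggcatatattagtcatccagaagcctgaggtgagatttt

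Motifs were searched on both strands in 32851 promoters of this length. The GC box GGGCGG stood in 6 of the 8 promoters and in 35.7% of all promoters. The CRE core TGACG, to which CREB and ATF proteins bind, stood in 5 of 8, those of Atf3, Fos, Fosb, Junb and Nr4a1, and in 20.8% of all. The 10-letter NF-kB site, by its usual consensus, stood in 4 of 8, those of Fos, Fosb, Ier3 and Nr4a1, and in 8.46% of all. In Ier3 it overlaps the GC box and forms the 1 run of capitals, 96 bases before the start at its first base. The EGR site GCGNGGGCG, bound by the Egr1 protein, stood in Fosb and Nr4a1 and in 5.55% of all, and in Fosb it overlaps a GC box. The TATA box TATAAA stood in 2 of 8, those of Fos and Junb, and in 13.6% of all. It began 33 bases before the annotated start in Fos, but at the annotated start itself in Junb. The full CRE TGACGTCA, the AP-1 site TGANTCA, the Nr4a1 site AAAGGTCA and the CArG box of serum response factor stood in none of the 8, and in 1.79%, 7.81%, 1.51% and 1.63% of all. The Jund window held none of the motifs. Of the 8 promoters, 7 held more G and C than the median promoter, with 46.7% to 72.3% over the 8 against 52.7%, so shares of motifs rich in these bases are not set against promoters of like composition. A match describes letters in this window and is not evidence of binding.

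Egr1 encodes a zinc finger factor that growth signals induce through serum response factor. Its plain probe set 98579_at read 4036 on the antisense-labelled array, 2087 with the scrambled oligonucleotide and 1397 in untreated cells. All 3 values lay above the floor, and the antisense-labelled array was the highest. This is 2.89-fold the untreated and 1.93-fold the scrambled value, or log2 differences of 1.53 and 0.95, both beyond the yardstick of 0.68. The scrambled array was above the untreated one by 0.58, within the yardstick, so the lower end of the order is not resolved. A family probe set assigned to Egr1, 98216_f_at, read 76.5, -17.4 and -118.9, all below the floor, and gives no second reading of the difference.

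Ier3 encodes a short protein that NF-kB and growth signals induce and that bears on cell survival. It read 2831 on the antisense-labelled array, 1258 with the scrambled oligonucleotide and 999 in untreated cells. The antisense-labelled array again stood apart, with the controls near each other: 2.83-fold the untreated and 2.25-fold the scrambled value, log2 differences of 1.50 and 1.17 against a yardstick of 1.06. The controls differed by 0.33. Ier2, which encodes a nuclear protein induced by the same kinds of signal, read 3299, 3034 and 2999 on the antisense-labelled, scrambled and untreated arrays. Its differences of 0.14 against untreated and 0.12 against scrambled lay within the yardstick of 0.63, so of this pair Ier3 alone lay beyond it.

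**Figure D1:**
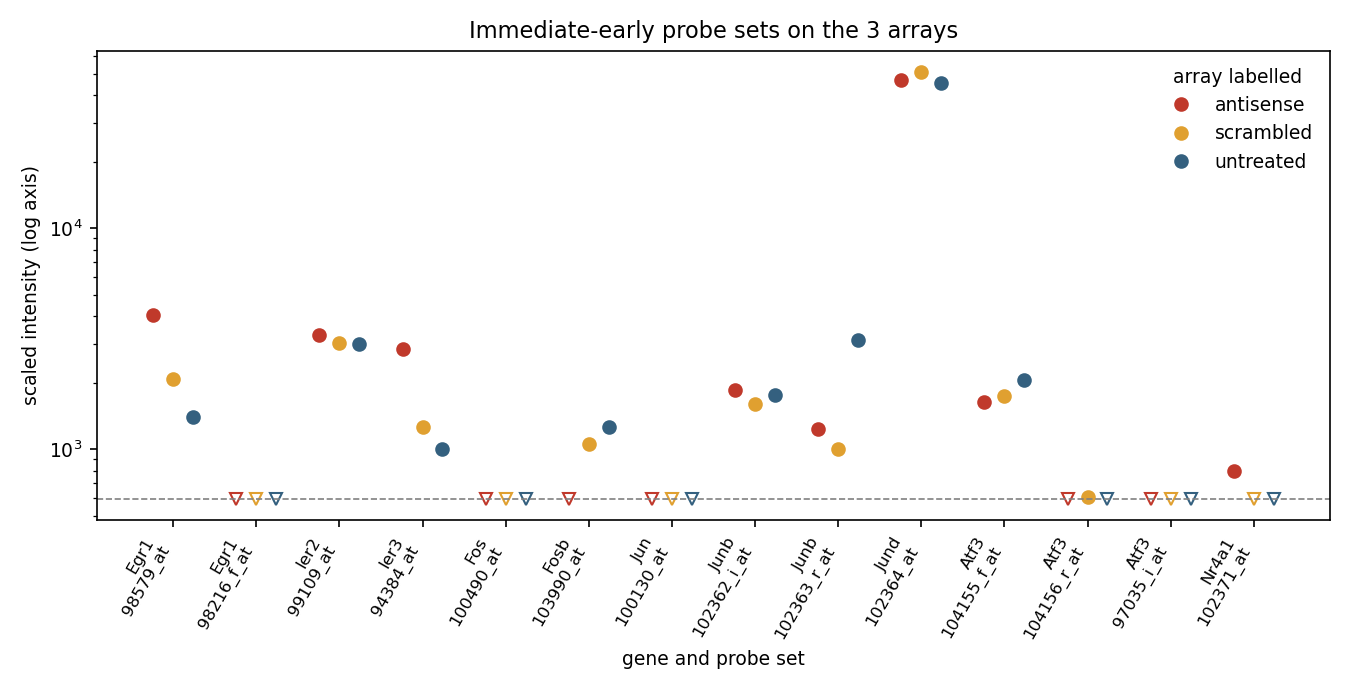
Scaled intensity (log axis) of the 14 immediate-early probe sets on the antisense-labelled, scrambled and untreated arrays, 1 point per array. Open triangles on the dashed line stand for values below the floor of 595.9. Egr1 98579_at and Ier3 are highest on the antisense-labelled array, Junb 102363_r_at is highest on the untreated array, and Jund is nearly level.

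Nr4a1, a nuclear receptor gene that antigen receptor signals induce, read 799 on the antisense-labelled array, -354 with the scrambled oligonucleotide and -41.6 in untreated cells. It was above the floor only on the first of these, so it passed the filter through that array alone. Against the floor it was at least 1.34-fold higher than either control, a log2 difference of 0.42. This too is a bound and cannot be set against the yardstick of 0.50. With the floor at 1 robust standard deviation it was 1.42, with a generalized log 1.69 against untreated and 2.40 against scrambled, and with the floor at 3 it was 0.00, with the 3 values below the floor.

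Among the Fos genes, Fosb, whose protein pairs with Jun proteins, read 510 on the antisense-labelled array, 1055 with the scrambled oligonucleotide and 1257 in untreated cells. The value on the antisense-labelled array lay below the floor and both controls above it. Against the floor it was at least 2.11-fold lower than untreated and at least 1.77-fold lower than scrambled, log2 differences of -1.08 and -0.82. These are bounds, so they cannot be placed within or beyond the yardstick of 1.15. The size depends on the floor: with it at 1 robust standard deviation of the values below 0 in place of 2, the differences were -1.30 and -1.05, and with it at 3 they were -0.49 and -0.24. Fos itself, the partner of Jun in the classical AP-1 dimer, read 262, -109 and 257 on the antisense-labelled, scrambled and untreated arrays, all below the floor.

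Among the Jun genes, Jund, which in many cells is present without a stimulus, was far above the floor. It read 47003 on the antisense-labelled array, 50908 with the scrambled oligonucleotide and 45322 in untreated cells. The 3 values lay close together, with differences of 0.05 against untreated and -0.12 against scrambled, within the yardstick of 0.32, and of 0.17 between the controls. Jun, the founding member, read -558, 86.6 and 507.5 on the antisense-labelled, scrambled and untreated arrays, all below the floor, and no difference can be given.

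The probe sets of Junb, an AP-1 gene that can restrain Jun, disagreed. Probe set 102362_i_at read 1844 on the antisense-labelled array, 1600 with the scrambled oligonucleotide and 1754 in untreated cells, with differences of 0.07 and 0.20 against untreated and scrambled. Probe set 102363_r_at read 1235, 1004.5 and 3131, so the untreated array alone was high: -1.34 for the antisense-labelled array and -1.64 for the scrambled array against untreated, both beyond the yardstick of 1.05, and 0.30 between the oligonucleotide arrays, within it. Both are annotated to the same sequence record, the suffixes i and r marking sets with fewer or less strictly chosen probes. They lie 1.41 apart for the antisense-labelled array against untreated and 1.51 apart for scrambled against untreated. Over 376 genes with several probe sets above the floor on all 3 arrays, 510 pairs of probe sets lay a median of 0.33 and 0.26 apart in these comparisons, with 95th percentiles of 1.12 and 1.01. Against scrambled the Junb sets lay 0.09 apart.

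Atf3, a stress-induced gene whose protein represses or activates as a partner of Jun proteins, has 3 probe sets. The family set 104155_f_at read 1633 on the antisense-labelled array, 1745 with the scrambled oligonucleotide and 2063 in untreated cells, with differences of -0.34 and -0.10 within the yardstick of 0.87. The reduced set 104156_r_at read 298, 605 and 249, above the floor on the scrambled array alone and by little. The incomplete set 97035_i_at read 183, 57.7 and 96, below the floor throughout. With 1 set above the floor on all 3 arrays, the sets cannot be compared with each other.

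**Figure D2:**
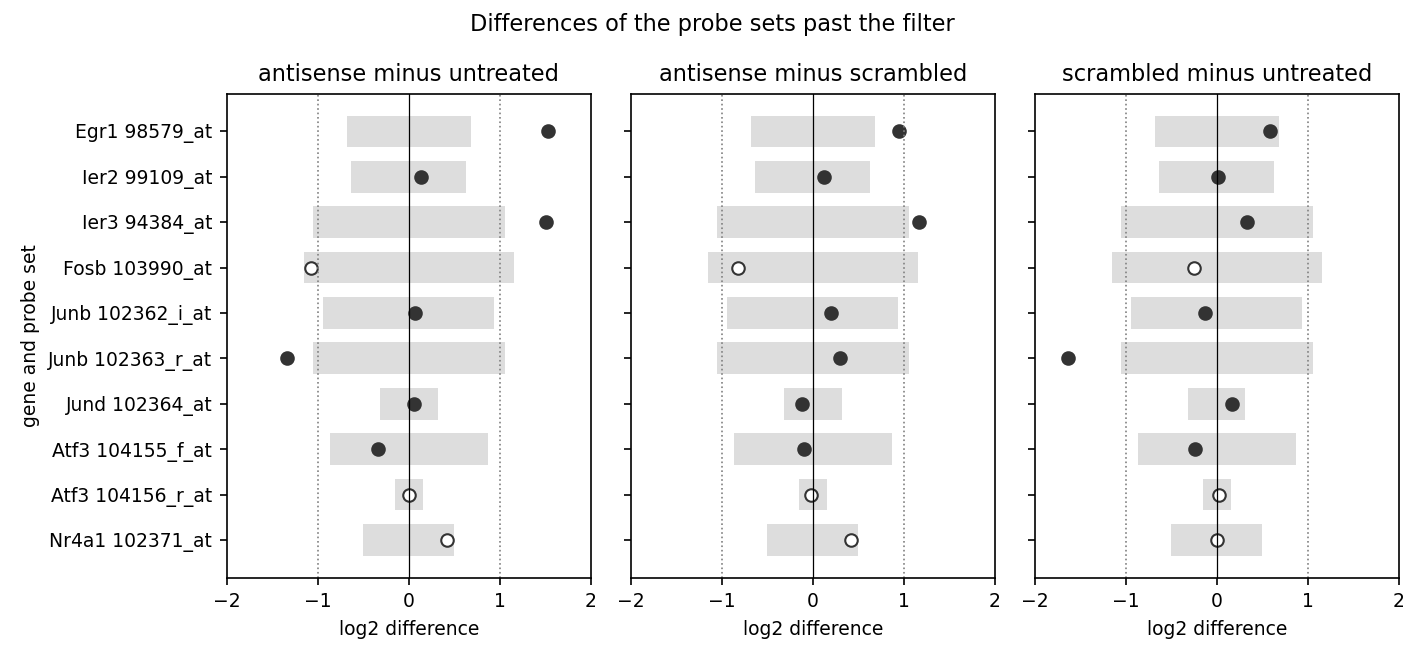
Log2 differences of the 10 probe sets past the filter, for the antisense-labelled array minus untreated, minus scrambled, and scrambled minus untreated. Grey bars span the yardstick on either side of 0, dotted lines mark 2-fold, and open circles are probe sets with a value below the floor, whose differences are bounds or rest on the floor. Egr1 and Ier3 lie beyond the yardstick in both comparisons of the antisense-labelled array, and Junb 102363_r_at in both comparisons against untreated. For scrambled minus untreated the yardstick comes from the same arrays as the difference.

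Of the 10 probe sets past the filter, 2 (Egr1 and Ier3) were at least 2-fold higher on the antisense-labelled array than on the untreated array, where 2.64% of all 6127 probe sets past the filter were. Another 2 (Fosb and Junb 102363_r_at) were at least 2-fold lower, against 2.2% of all. Fosb counts here only with the floor at 2 robust standard deviations or less: at 3 it was short of 2-fold, and at 1 it was 2-fold lower than both controls. Against scrambled, Ier3 was at least 2-fold higher, against 3.2% of all, and none of the 10 was lower, against 2.82% of all. Both differences of Egr1 and Ier3 were beyond the yardstick, but Ier3 alone was 2-fold higher than both controls, where 1.35% of all probe sets were, and none was 2-fold lower than both, where 1.06% were. Between the controls, Junb 102363_r_at was the only one 2-fold lower on the scrambled array, against 1.4% of all, and none was higher, against 1.7%. With counts of 0 to 2 these shares are descriptions. With scaling to the spike-in controls, Egr1 differed from scrambled by 1.46, past 2-fold, and Fosb and Junb 102363_r_at differed from untreated by -0.67 and -0.71, short of 2-fold, while 8.31% of all probe sets were then 2-fold higher than both controls and 0.306% lower. The median difference of the 10 was 0.06 against untreated and 0.16 against scrambled, beside 0.00 for all probe sets in both, and that of all 14 was 0.00 in both. Both comparisons use the same array labelled antisense, so they are not independent.

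**Figure D3:**
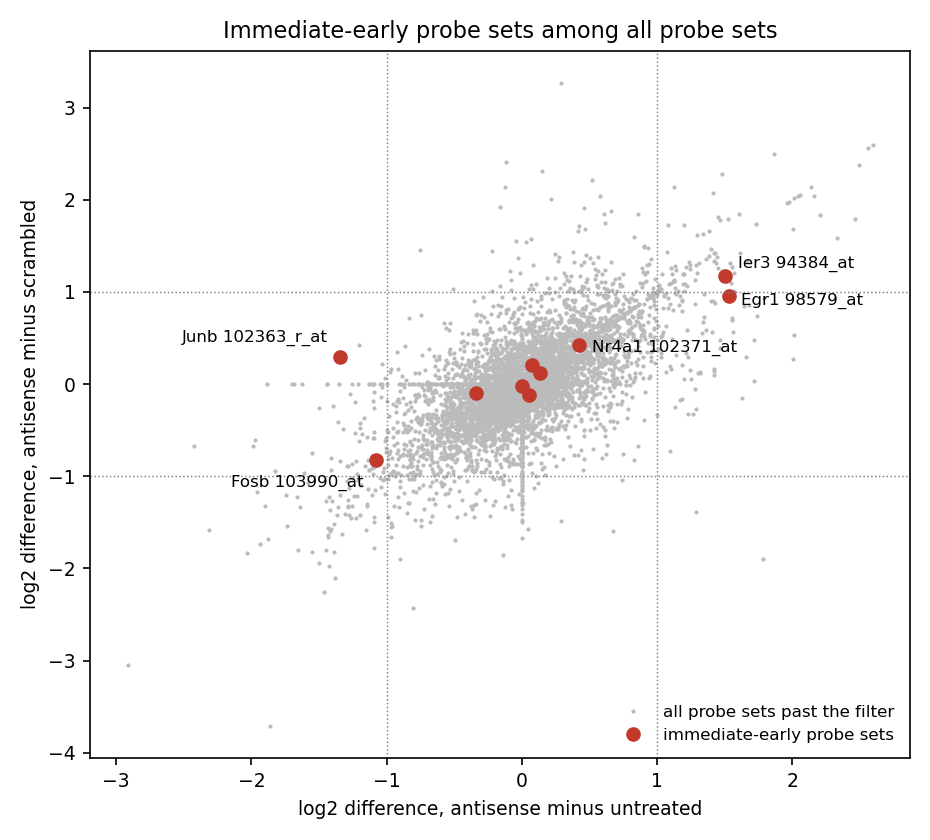
Log2 difference of the antisense-labelled array minus untreated (horizontal) and minus scrambled (vertical) for the 6127 probe sets past the filter (grey) and the 10 immediate-early ones (red). Dotted lines mark 2-fold. Ier3 lies past 2-fold on both axes, Egr1 at 1.53 and 0.95, Fosb at -1.08 and -0.82 and Junb 102363_r_at at -1.34 and 0.30. The other 6 lie between -0.34 and 0.42 on both axes.

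By the distance between the pair of differences from untreated, over 3 arrays and 3524 genes above the floor on all of them, the genes most like Egr1 were Ccng1, Vamp2 and Bcl2l1, at distances of 0.04, 0.13 and 0.19. Ccng1, a cyclin gene, read 2234, 1113 and 754 on the antisense-labelled, scrambled and untreated arrays. The genes most like Ier3 were Wfdc21, the kinase gene Pim1 and 1700073E17Rik, at 0.03, 0.07 and 0.07. Pim1 read 17982, 7444 and 6134. The genes most like Junb 102363_r_at were Banp, Pola2 and Aldh3a2, at 0.14, 0.58 and 0.60. With 3 points per gene many genes come close to any pattern.

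Of 54 other immediate-early genes listed beside the members, 41 were on the array and 24 passed the filter. Only Nfkbia, the NF-kB inhibitor that NF-kB itself induces, was at least 2-fold higher on the antisense-labelled array than on both controls, and none was lower. Over all 4643 genes past the filter, represented by 1 probe set each, 1.25% were higher than both and 0.991% were lower. Nfkbia read 26784 on the antisense-labelled array, 13318 with the scrambled oligonucleotide and 13171 in untreated cells, and its second probe set read 14841, 8928 and 8188, with differences of 0.86 against untreated and 0.73 against scrambled. The median of the 24 genes was -0.05 against untreated and 0.00 against scrambled, beside 0.00 for all genes in both. Over the 17 of them above the floor on at least 2 arrays the medians were -0.05 and -0.17. Gadd45b, a growth-arrest gene, read 3165, 2013 and 2298, with differences of 0.46 and 0.65 within the yardstick of 0.75. Mafk, a small Maf protein gene, read 2095, 713 and 2162, so that the scrambled array was low and the antisense-labelled array was level with untreated.

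**Figure D4:**
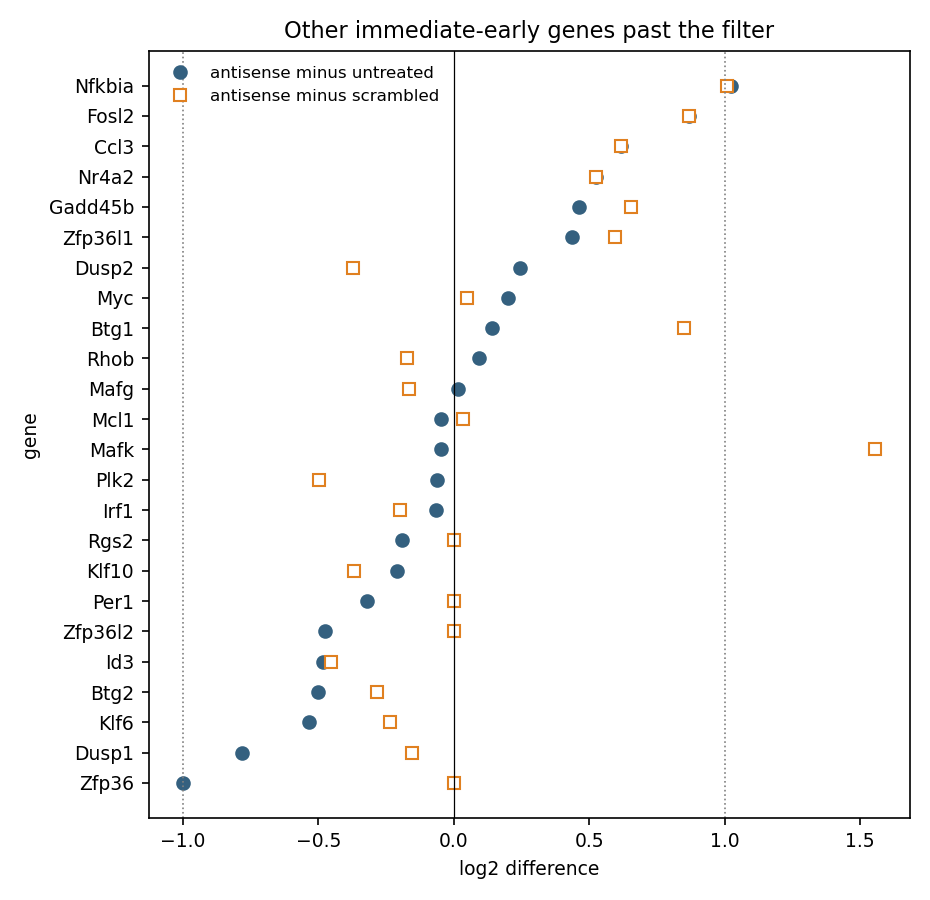
Log2 differences of the 24 other immediate-early genes past the filter, for the antisense-labelled array minus untreated (circles) and minus scrambled (squares). Dotted lines mark 2-fold. Nfkbia lies just past 2-fold in both, Mafk past it only against scrambled, and the rest lie short of 2-fold. Zfp36, Zfp36l2, Rgs2 and Per1 lie at 0 against scrambled because both values were below the floor. Differences of genes with a value below the floor are bounds or rest on the floor, and these genes are not marked.

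Of 19 AP-1 partner and ATF/CREB genes, 14 were on the array and 11 passed the filter. Their median difference was 0.25 from untreated and 0.12 from scrambled. Nfe2l1, a basic leucine zipper factor of proteasome and stress genes, was the 1 gene 2-fold higher than both, where 1.25% of all genes were. It read 1439 on the antisense-labelled array against 128 with the scrambled oligonucleotide, below the floor, and 622 in untreated cells. A second probe set of Nfe2l1 was below the floor on all 3 arrays. Batf, an AP-1 factor of lymphocytes that pairs with Jun proteins, read 4683, 3533 and 3145, with differences of 0.57 and 0.41 within the yardstick of 0.70. Ddit3, the CHOP gene of the stress response, read 2559, 2399 and 1330, high on both oligonucleotide arrays: 0.94 for the antisense-labelled array and 0.85 for scrambled against untreated, beyond the yardstick of 0.82. Crem, a CREB relative, read 631, 932 and 819, with differences of -0.37 and -0.56 within the yardstick of 1.13. The other probe sets of Crem were below the floor on all arrays.

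Of 27 genes that act upstream, 20 were on the array and 15 passed the filter, with medians of -0.08 and -0.09, or -0.11 in both over the 14 above the floor on at least 2 arrays. Prkca, a protein kinase C gene, was the 1 that was 2-fold higher than both, where 1.25% of all genes were. It read 2295 on the antisense-labelled array against 665 with the scrambled oligonucleotide and 796 in untreated cells. Mapk8, the gene of the kinase JNK1 that phosphorylates Jun, read 1750, 1178 and 1004 in the probe set above the floor, with differences of 0.80 and 0.57 within the yardstick of 1.23. Map2k1, the gene of the kinase MEK1, read 2572, 3289 and 3704, with differences of -0.53 and -0.35 within the yardstick of 0.66.

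Of 9 partners and repressors of the Egr and Nr4a proteins, 7 were on the array and 6 passed the filter. None was 2-fold apart from both controls, where 1.25% of all genes were higher and 0.991% lower. Of the 6, Nr4a2 passed through the antisense-labelled array alone, and the medians of 0.36 and 0.45 become 0.19 and 0.40 without it. Rxrb, a retinoid X receptor gene whose family pairs with Nr4a proteins, read 4701 on the antisense-labelled array, 2651 with the scrambled oligonucleotide and 2663 in untreated cells, with differences of 0.82 and 0.83 beyond the yardstick of 0.71. Rxra, another of that family, read 794, 1548 and 1158 in the probe set above the floor, with differences of -0.54 and -0.96 within the yardstick of 1.24. A second probe set of Rxra was below the floor on all arrays. Sp1, the gene of a factor that binds GC boxes, read 5083, 3844 and 3513, with differences of 0.53 and 0.40 within the yardstick of 0.56.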

How the data were processed

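Total RNA of LNC cells was measured on 3 Affymetrix arrays, 1 per group, and groups were taken from the labels. A single table was deposited by the authors, with a linear intensity for each probe set and array. Its values have a trimmed mean of 1500 on each array with 2% removed from each end, and between 24.8% and 27.9% are at or below 0. The sources used here do not name the software.

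Each array was rescaled to the common trimmed mean over 12588 probe sets, controls left out. The floor was set at 2 robust standard deviations of the values below 0, values under it were raised to it before taking log2. The 6127 probe sets with any value above the floor were kept. Probe sets were named by the platform annotation where it lists 1 symbol (10276 probe sets other than controls), and the identifiers of all 14 probe sets matched RefSeq. A gene outside the 10 is shown by whichever of its probe sets had the highest mean level. Beyond the 10 genes, those named in each list are the genes 2-fold apart from both controls in the same direction and the 3 above the floor on all arrays with the largest mean difference. A fold against a value under the floor is a lower bound. The genes and lists were chosen with earlier results of these data known. In all, 10 processing alternatives were tried. Counting was tested on simulated data, with changes planted only in probe sets far above the floor. That test does not cover values near the floor. Computation used Python 3.11.15, numpy 2.4.6 and pandas 2.3.3.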

Additional observations from a re-analysis of the deposited data

How the results depend on the processing

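In the main processing, counts of probe sets at least 2-fold apart rest on at most 2 of the 10, so a single probe set moves them. The number past the filter also changed. It was 11 with the floor at 1 robust SD, 8 with it at 3 and 9 with scaling to the spike-in controls. With all 3 arrays required above the floor it was 7, and with plain suffixes 6. With the floor at 1 robust SD, 3 were higher than untreated, against 4.97% of all probe sets, and 2 were higher than scrambled, against 5.71%. Higher than both controls were 2, against 2.43%. In that setting 2 were lower than scrambled, against 6.21%, and 1, Fosb, was lower than both, against 2.32%. Another 1 was higher on the scrambled array than in untreated cells, against 4.26%. There Nr4a1 differed by 1.42 from either control, since its control values lie below 0. With the floor at 3 robust SD, or with all 3 arrays required above the floor, or with plain suffixes alone, 1 was lower than untreated. The shares of all probe sets were 1.22%, 1.56% and 2.18%, and Fosb was lost in the first 2 cases and Junb in the third. With plain suffixes 0 were lower on the scrambled array than in untreated cells, against 1.29% of all. With a generalized log, 3 were higher than untreated, against 4.54% of all, 2 higher than scrambled, against 5.03%, and 2 higher than both, against 2.04%. Scaling to the spike-in controls raises values above the floor by 0.63 against untreated and 0.51 against scrambled. With it 2 were higher than scrambled, against 12.2% of all, 2 higher than both and 0 lower than untreated, against 0.627%. Under that scaling 8.31% of all probe sets were higher than both and 0.306% lower. Jund then differed by 0.68 and 0.40 from untreated and scrambled, close to the common shift. In all, 66 of 80 counts stayed within 1.5 times and 14 moved. Some of the 80 could hardly move. Leaving out the filter adds only probe sets below the floor on all arrays, whose differences are 0. The deposited intensities are almost the scaled ones, with scale factors near 1.00, so the total is not a measure of robustness. No log2 difference past 2-fold changed sign in the 10 alternatives. Egr1 98579_at ranged from 2.78-fold to 4.47-fold the untreated value, and Ier3 from 2.65-fold to 4.39-fold. No paired analysis was possible because each group has 1 array. Values near the floor limit Fosb, Nr4a1, Jun, Fos and Atf3.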

Other observations

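Values of 5 other immediate-early genes that were highest on the untreated array are given here, chosen after they were seen. Of these, 3 (Zfp36, Zfp36l2 and Per1) passed the filter through that array alone, so each had to be highest there. Zfp36, whose protein destabilises cytokine RNAs, read 213 on the antisense-labelled array, 198 with the scrambled oligonucleotide and 1190.3 in untreated cells. Its relative Zfp36l2 read -1109, -521 and 829.5 in a reduced probe set, with its other 2 sets below the floor on all arrays, and the clock gene Per1 read -28.8, 131 and 745. Dusp1, a phosphatase that turns off MAP kinases, read 571, 664 and 1025. Btg2, an antiproliferative gene well above the floor, read 4111, 5006 and 5816. Its differences of -0.50 against untreated and -0.28 against scrambled lay within the yardstick of 0.53. The 5 are not all that were highest on the untreated array. Id3, also well above the floor, read 7345, 10043 and 10272, with differences of -0.48 and -0.45 beyond the yardstick of 0.37.

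Genes above the floor on the antisense-labelled array alone included Fosl2, an AP-1 gene outside the 10, at 1087 against 525 and 430.0 on the scrambled and untreated arrays, and Nr4a2, a relative of Nr4a1, at 857 against 239 and 540. The chemokine gene Ccl3 read 913 against 234 and 73. These genes passed the filter through that array alone, so each had to be higher there.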
